A study of Homo sapiens with 30 samples.

Results

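Expression of 9 genes was followed in 3 neuroblastoma lines: the cyclin, kinase and inhibitor genes of the elongation kinase P-TEFb (CCNT1, CCNT2, CDK9, HEXIM1, HEXIM2), the genes of 2 proteins that bind 7SK RNA (LARP7, MEPCE), and 2 genes of the super elongation complex (AFF4, ELL2). They are 9 of the 52007 Ensembl genes listed in the tables of all 3 lines, taken by name: CCNT1 because it was among the genes lowest with both antisense oligonucleotides (ASOs) in SK-N-BE(2)c and NGP, and the rest because they work with it. Values against the control ASO were therefore in view when the genes were picked, and those contrasts, and the differences between lines built from them, are given below as a description, with standard errors but no p-value for these 9 genes. All 9 passed the filter on low values (a mean normalized count of at least 10) in each line.

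The cells were IMR32, NGP and SK-N-BE(2)c, which are established neuroblastoma lines, each transfected by lipofection with 100 nM of an ASO, a short nucleic acid that binds a chosen RNA. ASO1, ASO2 and ASO10 were designed against NESPR, a long non-coding RNA that the series title ties to adrenergic neuroblastoma, stress and cell death, and NCA was a negative control ASO. IMR32 had 4 libraries each of ASO1, ASO2 and NCA, and NGP and SK-N-BE(2)c had 3 libraries each of ASO2, ASO10 and NCA. No group was untreated, each line is a single culture model, and the time to harvest is not stated. NESPR itself was not analysed here, so the knockdown is not reported. The labels number the replicates without saying that the cultures were separate, so p-values measure the spread between these libraries, which may be technical. Replicate 1 of NCA in NGP and SK-N-BE(2)c is spelled differently from replicates 2 and 3 in the column names; the titles place them in one group, and values without replicate 1 are given below where it changes a call against NCA. Without it the sign turned for ELL2 (ASO10 in NGP, 0.040), HEXIM2 (ASO2 in SK-N-BE(2)c, 0.036) and LARP7 (ASO2 in SK-N-BE(2)c, -0.020), with or without it not called.

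P-TEFb is a kinase of CDK9 and a cyclin T, cyclin T1 or cyclin T2. It phosphorylates RNA polymerase II and the pausing factors NELF and DSIF, which lets polymerase leave its pause near the promoter. Much of the P-TEFb in a cell is held inactive on the 7SK RNA by HEXIM1 or HEXIM2, in a particle that LARP7 and MEPCE keep together. Once released, it can be brought to genes by the super elongation complex, in which AFF4 is the scaffold and ELL2 an elongation factor. HEXIM1 was named for its induction by hexamethylene bisacetamide, and its messenger RNA has been used as a marker of response to BET bromodomain inhibitors.

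Depth ran from 9393587 to 15060356 reads per library. The 10 adrenergic neuroblastoma markers (HAND2, GATA3, TH and others) were all present in each line, while the immune markers summed to at most 15.3 normalized counts in any library, with CD3E at 0 throughout. Summed adrenergic marker counts were lower with the NESPR ASOs than with NCA in NGP (76279.7 to 81238 against 83983 to 86273) and in SK-N-BE(2)c (47588 to 51699 against 60076 to 66853). The sum of the 7 mesenchymal markers was higher (11138 to 14439 against 9782 to 9904 in NGP, 3551 to 3851 against 2736 to 2901 in SK-N-BE(2)c). Of these 7 markers, 5 in NGP, 3 in SK-N-BE(2)c and 4 in IMR32 had a mean of at least 10 in the line. The sums therefore rest on few genes. In IMR32 the adrenergic sum was lower with ASO1 (48568 to 54724 against 55088 to 58098) and overlapped NCA with ASO2, and the mesenchymal sum was higher with ASO2 (3287 to 3459 against 2426 to 2951) and overlapped with ASO1. The sum of 4 fibroblast markers with ASO2 was higher than with NCA in IMR32 (1188 to 1298 against 1012 to 1103) and NGP (460.5 to 495 against 363 to 399) and lower in SK-N-BE(2)c (633 to 686 against 751 to 824), and overlapped NCA with ASO1 and ASO10. Of the 4 fibroblast markers, 3 in NGP and 2 in each other line reached a mean of 10. The part of the shifts in marker sums in the results below was not tested. In bulk RNA, fewer cells with a transcript and less of it per cell cannot be told apart. The size factors recovered from the values fit a joint scaling of NGP and SK-N-BE(2)c by the authors and a separate one of IMR32, whose table also lists other genes, so levels in IMR32 are compared only within that line.

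CCNT1 (ENSG00000129315) encodes cyclin T1, the main partner of CDK9. In NGP its normalized counts were 2055, 1969.9 and 2126 in the NCA libraries, 800.2, 846 and 847 with ASO2 and 529, 509.7 and 524 with ASO10. The 3 groups did not overlap, and the order was the same in every library: NCA highest, then ASO2, then ASO10. Means were 2050.3 ± 78.2 (SD, n = 3), 831 ± 26.6 and 521 ± 9.89. The log2 fold changes against NCA were -1.30 ± 0.06 (standard error) with ASO2 and -1.97 ± 0.06 with ASO10, each on the log2(value + 1) scale used throughout.

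In SK-N-BE(2)c the NCA libraries had 1733, 1851 and 1839.9 CCNT1 counts, the ASO2 libraries 657, 624 and 669 and the ASO10 libraries 451, 299.7 and 421. The order of groups was that of NGP, again without overlap, and ASO10 replicate 2 was the lowest of the 9 libraries of that line. The log2 fold changes were -1.47 ± 0.10 with ASO2 and -2.23 ± 0.10 with ASO10, and the latter was -2.05 without that library. Ranked from the lowest log2 fold change, CCNT1 stood at 7 of 13556 tested genes with ASO10 in SK-N-BE(2)c and at 19 of 14440 in NGP. With ASO2 it stood at 297 and 320 in the same lines. CCNT1 was picked for its low values in these contrasts, so the ranks restate that choice. Without NCA replicate 1 the 4 log2 fold changes were -1.30 and -1.97 in NGP, and -1.50 and -2.26 in SK-N-BE(2)c.

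IMR32 differed. CCNT1 counts there were 1063, 1182, 1154 and 1108 with NCA, 1470.2, 1275, 1346 and 1325 with ASO1 and 1047, 985, 1005 and 1063 with ASO2. All ASO1 libraries lay above all NCA libraries, and the highest ASO2 library lay just below the lowest NCA library. The log2 fold changes were 0.26 ± 0.05 with ASO1 and -0.14 ± 0.05 with ASO2. The first was called at an adjusted p under 0.05 (limma, Benjamini-Hochberg over all tested genes) and the second was not. The ASO2 value was called with the library totals made equal (-0.17), with TMM scaling, with a replicate block, with only these 2 groups fitted, and without ASO1 replicate 1 or NCA replicate 1 (-0.16 without the latter).

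**Figure D1:**
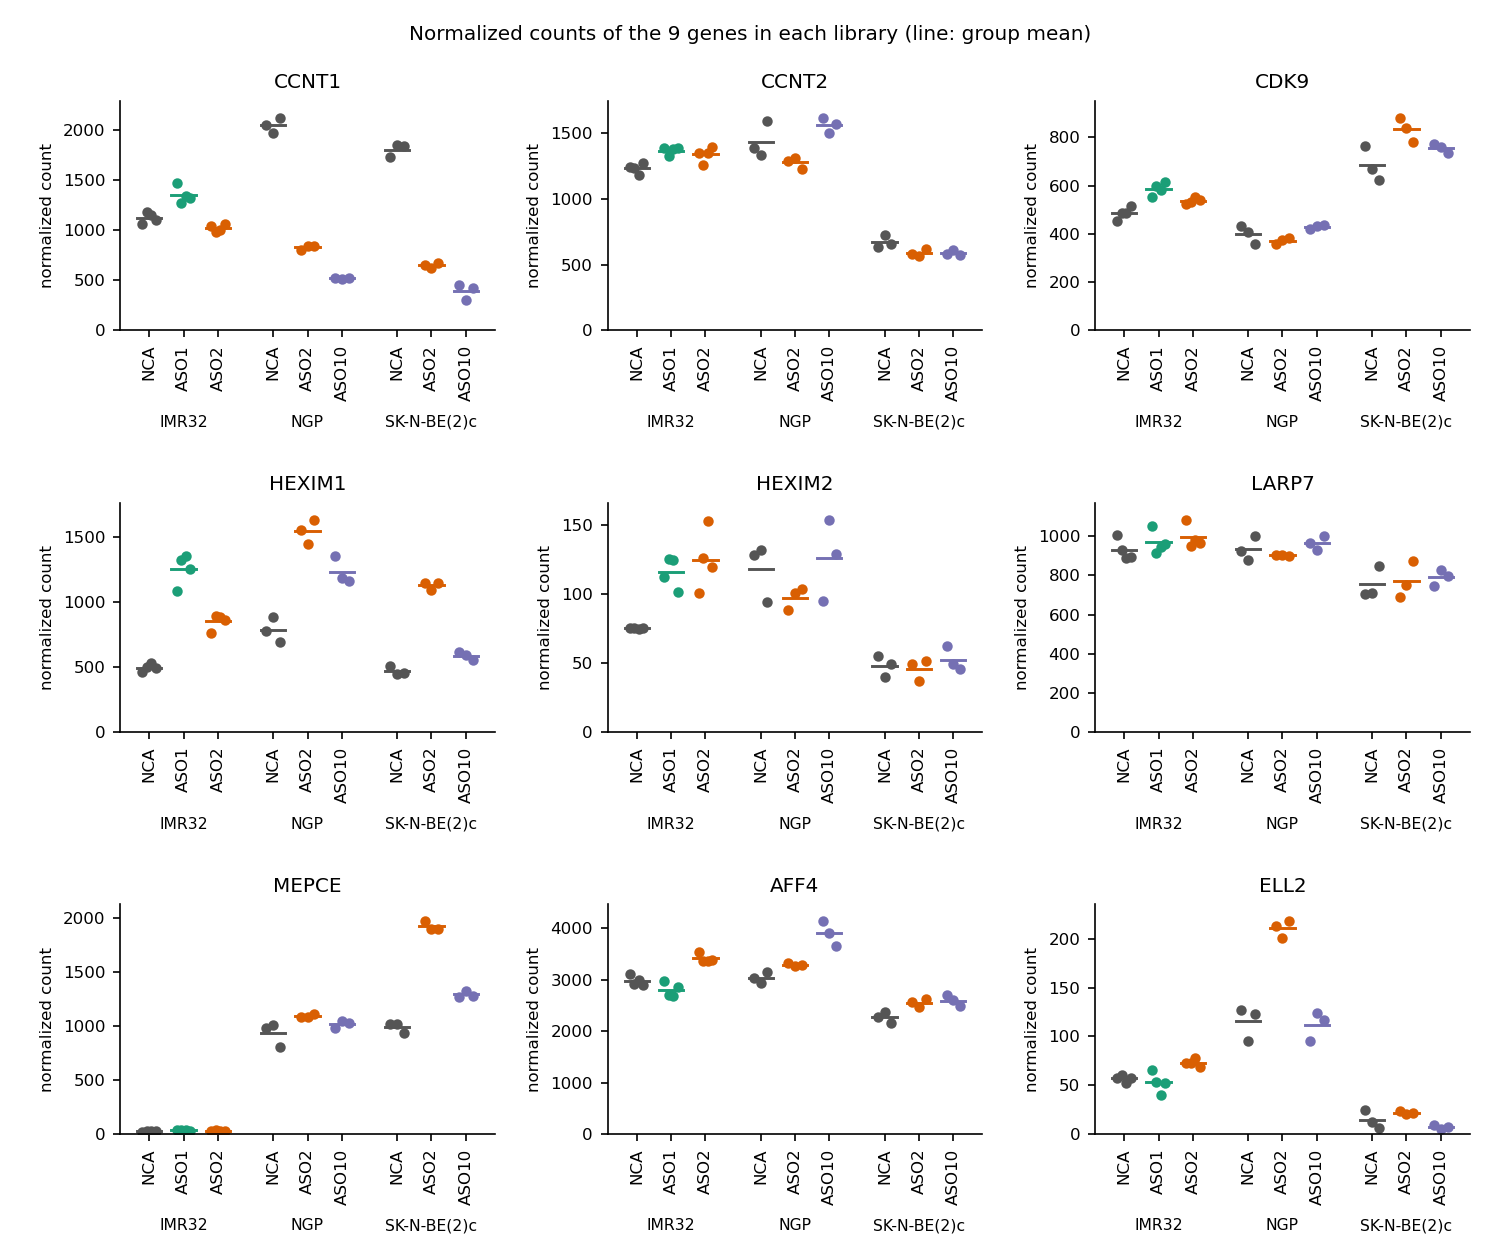
Normalized count (vertical axes, from 0) of the 9 genes in each of the 30 libraries, by line and ASO, with 1 point a library and a short line at the group mean. CCNT1 is lower with ASO2 and lowest with ASO10 in the NGP and the SK-N-BE(2)c panels, and HEXIM1 is above its NCA libraries in every ASO group.

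The ASOs were also set against each other. The choice of genes did not use this contrast directly, but it was made with values of the same ASO libraries in view. The contrast is also the difference of the contrasts against NCA of a line. The p-values between ASOs, here and below, are therefore not independent of the choice of genes. CCNT1 was higher with ASO2 than with ASO10 by 0.67 ± 0.06 in NGP (adjusted p = 1.7e-09, limma) and by 0.76 ± 0.10 in SK-N-BE(2)c (adjusted p = 9.06e-08). With ASO1 the gene was higher than with ASO2 in IMR32, by 0.40 ± 0.05 (adjusted p = 1.68e-05). The direction held in every library of each comparison. The ASO2 effect in NGP minus that in IMR32 was -1.17 ± 0.11, and in SK-N-BE(2)c minus IMR32 -1.34 ± 0.11. Between NGP and SK-N-BE(2)c the differences were -0.17 ± 0.12 for ASO2 (SK-N-BE(2)c minus NGP) and -0.25 ± 0.12 for ASO10.

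The genes whose profile was most like that of CCNT1 were found by Pearson's r of log2 values, centred within each line, over the 18 libraries of NGP and SK-N-BE(2)c and 11594 genes tested in all tables. They were ABL2, a tyrosine kinase gene (r = 0.988), SMARCC1, a chromatin remodelling subunit (r = 0.986), CENPP, a centromere protein (r = 0.983), PNPLA8, a phospholipase (r = 0.983) and BTRC, a ubiquitin ligase subunit (r = 0.980). These libraries come from 6 groups, so the 18 points are not independent, and the values are a description. ABL2 had log2 fold changes of -1.23 and -1.88 with ASO2 and ASO10 in NGP, close in size to those of CCNT1. SMARCC1 had -0.44 and -0.72, so a like order came with smaller shifts. Over the 12 IMR32 libraries the r with CCNT1 ran from -0.56 (CENPP) to 0.71 (BTRC).

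CCNT2 (ENSG00000082258), the gene of cyclin T2, did not share the pattern of CCNT1. Its counts in NGP were 1384, 1330.1 and 1589.6 with NCA, 1287, 1314 and 1228 with ASO2 and 1616, 1499 and 1570.0 with ASO10. The SK-N-BE(2)c counts were 637, 723 and 659 with NCA, 582, 567 and 617 with ASO2 and 578, 612 and 572 with ASO10. The log2 fold changes were -0.16 ± 0.07 and 0.13 ± 0.07 with ASO2 and ASO10 in NGP, and -0.19 ± 0.07 and -0.19 ± 0.07 in SK-N-BE(2)c. The libraries of ASO2 lay below those of NCA in both lines, as did ASO10 in SK-N-BE(2)c, while ASO10 overlapped NCA in NGP. In IMR32 the counts ran from 1179.5 to 1272 with NCA, from 1323 to 1386 with ASO1 and from 1256 to 1396 with ASO2 (log2 fold changes 0.15 ± 0.05 and 0.12 ± 0.05).

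These CCNT2 shifts were small enough for 1 library to decide most calls. The ASO2 call in NGP was lost without NCA replicate 3 (-0.09), ASO2 replicate 1 (-0.17) or ASO2 replicate 3 (-0.14), and a call for ASO10 appeared without NCA replicate 3 (0.20). In SK-N-BE(2)c the ASO2 call was lost without NCA replicate 2 (-0.14), ASO2 replicate 1 (-0.18) or ASO2 replicate 2 (-0.17). The ASO10 call there was lost without NCA replicate 2 (-0.14), ASO10 replicate 1 (-0.18) or ASO10 replicate 3 (-0.18), and with TMM scaling (-0.17). In IMR32 the ASO1 call was lost without NCA replicate 3 (0.13), and one for ASO2 appeared without ASO2 replicate 2 (0.15) or ASO1 replicate 1.

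Between ASOs, CCNT2 was lower with ASO2 than with ASO10 in NGP (-0.29 ± 0.07, adjusted p = 0.000519, limma), and the groups did not overlap. The same contrast gave 0.00 ± 0.07 in SK-N-BE(2)c (adjusted p = 0.973), and ASO1 against ASO2 gave 0.03 ± 0.05 in IMR32 (adjusted p = 0.683). The ASO2 effect was lower in NGP than in IMR32 by a difference of -0.28 ± 0.08 and in SK-N-BE(2)c than in IMR32 by -0.31 ± 0.08. The ASO10 effect was lower in SK-N-BE(2)c than in NGP (-0.32 ± 0.09). The ratio of CCNT1 to CCNT2 counts within a library, which is not a ratio of transcripts because the genes differ in length, was 1.43 ± 0.0840 (SD, n = 3) with NCA, 0.652 ± 0.0344 with ASO2 and 0.334 ± 0.00643 with ASO10 in NGP. The SK-N-BE(2)c ratios were 2.69 ± 0.118, 1.10 ± 0.0222 and 0.668 ± 0.156. CCNT2 overlaps an antisense gene (CCNT2-AS1) in GENCODE release 29, and whether counting used strand is not given in the sources used here.

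CDK9 (ENSG00000136807), the kinase of P-TEFb, stayed within a narrow range. With NCA, ASO1 and ASO2 in IMR32 its counts were 452, 485, 484 and 517, then 554, 598, 581 and 617, then 525, 533, 552 and 541. Both ASO groups lay above NCA, with log2 fold changes of 0.28 ± 0.06 and 0.15 ± 0.06. In NGP the counts were 431, 409 and 360.0 with NCA, 358, 376 and 382 with ASO2 and 419, 432 and 438 with ASO10, and both ASO groups overlapped NCA (-0.10 ± 0.09 and 0.11 ± 0.09). SK-N-BE(2)c had 764, 667 and 622 with NCA, 881, 840.3 and 782 with ASO2 and 774, 760.0 and 736 with ASO10. The ASO2 group was above NCA (0.29 ± 0.08) and the ASO10 group overlapped it (0.15 ± 0.08).

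The CDK9 calls against NCA were those of ASO1 and ASO2 in IMR32 and ASO2 in SK-N-BE(2)c. The IMR32 ASO2 call was lost under 6 other settings, edgeR and DESeq2 among them, and on leaving out any of 8 of the 12 libraries (all but ASO1 replicates 1 and 4, ASO2 replicate 1 and NCA replicate 4), with values from 0.12 to 0.16. The SK-N-BE(2)c ASO2 call was lost with the library totals made equal (0.15), and an ASO10 call appeared without NCA replicate 1 (0.23). CDK9 was lower with ASO2 than with ASO10 in NGP (-0.21 ± 0.09, adjusted p = 0.0431, limma). That call was lost with DESeq2, with no filter on low values, and without any 1 of the 6 libraries compared (-0.18 to -0.23). The contrasts between ASOs gave 0.14 ± 0.08 in SK-N-BE(2)c (adjusted p = 0.111) and 0.13 ± 0.06 in IMR32 (adjusted p = 0.116). The ASO2 effect on CDK9 was higher in SK-N-BE(2)c than in NGP (0.39 ± 0.10) and lower in NGP than in IMR32 (-0.25 ± 0.10).

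HEXIM1 (ENSG00000186834), which inhibits P-TEFb on 7SK RNA, had all ASO libraries above all NCA libraries for every ASO and line, which held for no other gene of the 9. For how many of all tested genes it held was not counted. CDK12, JMJD6, BRD2, SUPT5H, NELFCD and POLR2A, named further below, also rose in all 6 contrasts against NCA. With ASO10, 77.1% of all tested genes in SK-N-BE(2)c and 87.9% in NGP had a lower log2 fold change than HEXIM1. With ASO2 the shares were 97.6% and 95.8% in these lines and 98.4% in IMR32, and with ASO1 99.6%. In IMR32 the HEXIM1 counts were 462, 499.6, 532 and 491 with NCA, 1082, 1324, 1353 and 1254 with ASO1 and 761, 895, 889 and 866 with ASO2. The 3 groups did not overlap, and ASO1 was highest. Means were 496 ± 28.4 (SD, n = 4), 1253 ± 121 and 853 ± 62.2, with log2 fold changes against NCA of 1.33 ± 0.07 and 0.78 ± 0.07.

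In NGP the HEXIM1 counts were 775, 885 and 693 with NCA, 1552, 1445 and 1634 with ASO2 and 1357, 1185 and 1162 with ASO10. Those in SK-N-BE(2)c were 511, 449.7 and 455 with NCA, 1144, 1095 and 1148 with ASO2 and 615, 596 and 551 with ASO10. In both lines the groups were again apart, in the order ASO2, ASO10, NCA. The log2 fold changes were 0.98 ± 0.08 and 0.66 ± 0.08 in NGP and 1.26 ± 0.07 and 0.32 ± 0.07 in SK-N-BE(2)c. Without NCA replicate 1 they were 0.98 and 0.65, and 1.32 and 0.38. All 6 were called under every setting tried, scaling included.

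HEXIM1 also differed between ASOs in each line. ASO1 was above ASO2 by 0.55 ± 0.07 in IMR32 (adjusted p = 1e-05, limma). ASO2 was above ASO10 by 0.32 ± 0.08 in NGP (adjusted p = 0.00113) and by 0.94 ± 0.07 in SK-N-BE(2)c (adjusted p = 7.36e-12). The ASO2 effect on HEXIM1 differed by 0.48 ± 0.11 for SK-N-BE(2)c minus IMR32, by 0.20 ± 0.11 for NGP minus IMR32 and by 0.28 ± 0.12 for SK-N-BE(2)c minus NGP. The ASO10 effect in SK-N-BE(2)c minus that in NGP was -0.34 ± 0.12.

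The mean ratio of HEXIM1 to CCNT1 was higher than with NCA in every ASO group. The ratio of HEXIM1 to CCNT1 counts within a library was 0.384 ± 0.0620 (SD, n = 3) with NCA in NGP, 1.86 ± 0.132 with ASO2 and 2.37 ± 0.178 with ASO10. The values were 0.262 ± 0.0287, 1.74 ± 0.0205 and 1.55 ± 0.378 in SK-N-BE(2)c. In IMR32 it was 0.440 ± 0.0159 (SD, n = 4) with NCA, 0.932 ± 0.136 with ASO1 and 0.834 ± 0.0814 with ASO2. In IMR32 with ASO1 both genes were above NCA. In the other 5 ASO groups HEXIM1 was above and CCNT1 below it, although in IMR32 with ASO2 the CCNT1 value (-0.14) was not called. In NGP and SK-N-BE(2)c, ASO10 gave the lower CCNT1 and ASO2 the higher HEXIM1.

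**Figure D2:**
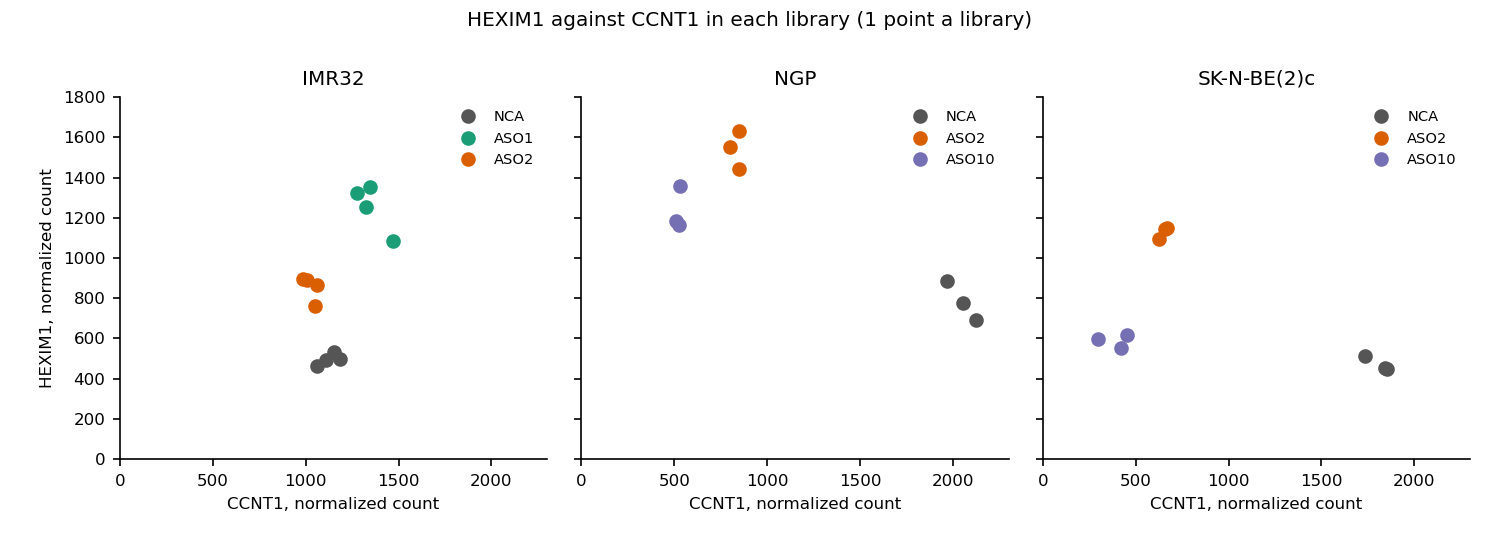
HEXIM1 normalized count (vertical) against CCNT1 normalized count (horizontal) in each library, 1 panel a line and 1 point a library, coloured by ASO. Groups form separate clusters, with all ASO libraries above the NCA libraries in each panel and left of them in every ASO group but IMR32 ASO1.

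The sequence just before the start site is shown for HEXIM1 and CCNT1, the 2 genes of the set with the largest differences from NCA. Both are RefSeq windows of 250 bases (GRCh38.p14), HEXIM1 at chr17:45148225-45148474 on the plus strand and CCNT1 at chr12:48716708-48716957 on the minus strand, written 5′ to 3′ along the gene, upstream of the first exon (for CCNT1, of the first of its 2 listed start sites). Capitals mark matches, on either strand, to TATAAA (the TATA box), to CACGTG (an E-box) and to CCAAT (the CCAAT box).
HEXIM1: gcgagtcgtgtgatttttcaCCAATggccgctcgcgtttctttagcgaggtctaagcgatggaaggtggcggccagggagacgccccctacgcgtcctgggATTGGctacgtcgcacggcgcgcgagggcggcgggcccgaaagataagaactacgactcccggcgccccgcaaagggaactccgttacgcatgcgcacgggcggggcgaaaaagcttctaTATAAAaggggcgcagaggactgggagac
CCNT1: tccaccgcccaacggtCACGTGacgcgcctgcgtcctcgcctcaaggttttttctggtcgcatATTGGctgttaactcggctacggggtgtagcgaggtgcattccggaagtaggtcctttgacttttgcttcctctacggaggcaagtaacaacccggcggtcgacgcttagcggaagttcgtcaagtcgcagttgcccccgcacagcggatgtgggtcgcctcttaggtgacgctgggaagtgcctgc
The HEXIM1 window has TATAAA 29 bases before the start and CCAAT at 230 and 149 bases. The CCNT1 window has CACGTG at 234 bases and CCAAT at 187 bases, and no TATAAA. Of the 35116 RefSeq windows of this length, 10.7% hold TATAAA, 6.34% CACGTG and 32.0% CCAAT. Of the 8 genes matched by symbol (ELL2 was not), HEXIM1 alone held TATAAA, and AFF4 and a second start of MEPCE also held CACGTG. A search of both strands for GGGCGG, held by 42.6% of all windows, found it 124 and 51 bases before the HEXIM1 start and 246 bases before that of CCNT1, and none of these matches share a base. The GC content was 62.4% with 31 CpG sites for HEXIM1 and 59.2% with 24 for CCNT1. Such matches describe the letters only.

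HEXIM2 (ENSG00000168517), the second inhibitor, had few reads (40 to 170 in a library). In IMR32 its counts were 75.5, 75.2, 74.7 and 75.3 with NCA, 112, 126, 125 and 102 with ASO1 and 101, 126, 153 and 120.0 with ASO2. Both ASO groups lay above NCA, whose 4 libraries were close together, with log2 fold changes of 0.62 ± 0.12 and 0.71 ± 0.12. In NGP the counts were 128, 132 and 94.4 with NCA, 88.2, 101 and 103 with ASO2 and 94.8, 154 and 129 with ASO10. The groups overlapped, with log2 fold changes of -0.26 ± 0.17 and 0.08 ± 0.17. In SK-N-BE(2)c they ran from 37.2 to 62.3 over all 9 libraries and overlapped as well (-0.07 ± 0.21 and 0.11 ± 0.21).

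The ASO2 effect on HEXIM2 was lower in NGP than in IMR32 by a difference of -0.97 ± 0.23 and in SK-N-BE(2)c than in IMR32 by -0.78 ± 0.23. None of the contrasts between ASOs was called for it (limma adjusted p = 0.0832 in NGP, 0.473 in SK-N-BE(2)c and 0.62 in IMR32). In NGP, ASO2 was called lower than NCA without NCA replicate 3 (-0.42). It was called lower than ASO10 without ASO10 replicate 1 (-0.53), without NCA replicate 3 (-0.34) or with equal library totals (-0.40). HEXIM1 and HEXIM2 lie next to each other on one strand, and an antisense gene overlaps both in GENCODE release 29, so how reads were split there depends on a strand setting that is not given in the sources used here. Of the 9 genes, 7 overlap some gene on the opposite strand, and CCNT1 and CDK9 do not.

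LARP7 (ENSG00000174720), the protein that binds the 3′ end of 7SK RNA, was called in none of the contrasts. Its means in NGP were 934 ± 62.9 (SD, n = 3) with NCA, 902 ± 4.18 with ASO2 and 964 ± 37.4 with ASO10. In SK-N-BE(2)c they were 756 ± 81.7, 770.1 ± 92.1 and 791 ± 41.3, and in IMR32 929 ± 55.3 (SD, n = 4) with NCA, 968 ± 58.7 with ASO1 and 996 ± 60.0 with ASO2. Its 6 log2 fold changes against NCA ran from -0.05 to 0.10. Between ASOs it gave -0.10 ± 0.07 in NGP (adjusted p = 0.227, limma), -0.04 ± 0.08 in SK-N-BE(2)c (adjusted p = 0.656) and -0.04 ± 0.06 in IMR32 (adjusted p = 0.674). The NGP contrast was called with equal library totals (-0.16), and ASO2 against NCA in IMR32 with a replicate block (0.10). LARP7 overlaps ZGRF1 and a cluster of microRNA genes on the opposite strand in GENCODE release 29.

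MEPCE (ENSG00000146834), the enzyme that caps the 5′ end of 7SK RNA, stood out in SK-N-BE(2)c. Its counts there were 1014, 1013 and 932 with NCA, 1965, 1898 and 1891 with ASO2 and 1270.3, 1323 and 1276 with ASO10. The groups did not overlap, ASO2 being highest, and the log2 fold changes were 0.96 ± 0.06 and 0.39 ± 0.06. In NGP the counts were 978, 1011 and 808 with NCA, 1079.7, 1078 and 1107 with ASO2 and 975, 1046 and 1028 with ASO10. The ASO2 libraries lay above NCA there (0.23 ± 0.07) and the ASO10 libraries overlapped it (0.13 ± 0.07). The NGP ASO2 call was lost without NCA replicate 3, the lowest library (0.13), and with equal library totals (0.16), and an ASO10 call appeared without NCA replicate 2 (0.19).

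Between ASOs, MEPCE was higher with ASO2 than with ASO10 in SK-N-BE(2)c (0.57 ± 0.06, adjusted p = 2.19e-09, limma), while NGP gave 0.10 ± 0.07 (adjusted p = 0.257). The ASO2 effect was higher in SK-N-BE(2)c than in NGP by 0.73 ± 0.14 and than in IMR32 by 0.88 ± 0.13. The ASO10 effect in SK-N-BE(2)c minus that in NGP was 0.26 ± 0.14. In IMR32 MEPCE had 19 to 39 reads in a library and normalized counts of 22.4, 28.4, 28.6 and 30.3 with NCA, 35.6, 37.8, 33.2 and 31.7 with ASO1 and 25.4, 33.9, 29.6 and 27.4 with ASO2. The ASO1 libraries lay above NCA (0.33 ± 0.16, not called), and ASO2 overlapped it (0.08 ± 0.16). NGP had 788 to 1163 MEPCE reads in a library and SK-N-BE(2)c 967 to 2094, so the difference from IMR32 rests on far fewer reads in IMR32. MEPCE overlaps ZCWPW1 on the opposite strand in GENCODE release 29. Whether the same reads were counted as MEPCE in IMR32 as in the other lines was not tested.

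The 7SK RNA itself could be matched only in part. The gene ID that carries the name RN7SK (ENSG00000283293) was at 0 reads in all 12 IMR32 libraries and is not among the genes listed for the other lines. A second ID, which older annotations give to 7SK RNA (ENSG00000202198), was also at 0 in IMR32. In NGP it had 80.6 ± 6.26 (SD, n = 3) normalized counts with ASO2, 104 ± 32.4 with ASO10 and 103 ± 48.3 with NCA. For SK-N-BE(2)c the values were 23.8 ± 18.6 with ASO2, 16.4 ± 7.37 with ASO10 and 39.0 ± 21.4 with NCA. The ASO10 value in SK-N-BE(2)c was called lower than NCA (log2 fold change -1.10 ± 0.45, limma adjusted p = 0.0349), although the libraries overlapped (8.60 to 23.2 against 14.6 to 54.9). That call was lost with DESeq2, with no filter on low values and without ASO10 replicate 3 (-0.72), NCA replicate 2 (-0.87) or NCA replicate 3 (-0.76). The other log2 fold changes of this ID were not called, although ASO2 was lower than NCA without NCA replicate 3 in NGP (-0.67) and without ASO2 replicate 1 (-1.31) or NCA replicate 1 (-1.32) in SK-N-BE(2)c. How well 7SK RNA, which has no poly(A) tail, is seen depends on the library kit, and the kit of each library is not stated.

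AFF4 (ENSG00000072364), the scaffold of the super elongation complex, had the most reads of the set. In NGP its counts were 3022, 2929.6 and 3147 with NCA, 3329.9, 3254 and 3281 with ASO2 and 4129, 3902 and 3657 with ASO10. Both ASO groups lay above NCA, with log2 fold changes of 0.12 ± 0.05 and 0.36 ± 0.05. SK-N-BE(2)c had 2281, 2378 and 2158 with NCA, 2562, 2476 and 2614 with ASO2 and 2691, 2595 and 2480.3 with ASO10. Here too both lay above NCA (0.17 ± 0.06 and 0.19 ± 0.06). In IMR32 the counts were 3113, 2909, 2985 and 2896 with NCA, 2975, 2698, 2687 and 2851 with ASO1 and 3533, 3366, 3363 and 3381 with ASO2, with ASO2 above NCA (0.20 ± 0.05) and ASO1 overlapping it (-0.09 ± 0.05).

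The AFF4 call for ASO2 in SK-N-BE(2)c was lost without NCA replicate 3 (0.13) and with equal library totals (0.03). One for ASO2 in NGP appeared without NCA replicate 3 (0.14) or ASO10 replicate 3 (0.12). AFF4 was lower with ASO2 than with ASO10 in NGP (-0.24 ± 0.05, adjusted p = 0.000311, limma) and lower with ASO1 than with ASO2 in IMR32 (-0.28 ± 0.05, adjusted p = 0.000122). The ASOs in SK-N-BE(2)c gave -0.02 ± 0.06 (adjusted p = 0.754), a contrast called with equal library totals (-0.13). For ASO10, the AFF4 effect in SK-N-BE(2)c minus that in NGP was -0.17 ± 0.07.

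ELL2 (ENSG00000118985), the elongation factor of that complex, was above NCA in all ASO2 libraries of NGP and IMR32. In NGP its counts were 127, 95.7 and 123 with NCA, 214, 201 and 218 with ASO2 and 95.8, 124 and 117 with ASO10. All ASO2 libraries were above the others, while ASO10 overlapped NCA (log2 fold changes 0.88 ± 0.14 and -0.04 ± 0.14). In SK-N-BE(2)c it had 5 to 24 reads, or normalized counts of 25.1, 12.1 and 5.78 with NCA, 23.2, 20.8 and 21.6 with ASO2 and 9.30, 5.11 and 6.88 with ASO10. The 3 NCA libraries spanned both ASO groups, and neither fold change was called (0.79 ± 0.43 and -0.74 ± 0.43). ASO2 was called without NCA replicate 1 (1.28) and ASO10 without NCA replicate 3 (-1.22).

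Between ASOs, ELL2 was higher with ASO2 than with ASO10 in NGP (0.91 ± 0.14, adjusted p = 3.48e-06, limma) and in SK-N-BE(2)c (1.53 ± 0.43, adjusted p = 0.00272), with no overlap in either. IMR32 had 57.8, 60.4, 52.7 and 57.0 with NCA, 65.7, 53.2, 39.8 and 52.6 with ASO1 and 72.8, 72.5, 78.1 and 68.6 with ASO2. There ELL2 was lower with ASO1 than with ASO2 (-0.48 ± 0.14, adjusted p = 0.0157), a call lost without ASO1 replicate 3 (-0.35). The ASO2 libraries lay above NCA (0.35 ± 0.14, not called); edgeR, a replicate block, a fit of only these 2 groups, and leaving out ASO1 replicate 1 or 3 did call it. The ELL2 differences between lines had standard errors of 0.34 to 0.37, and the ASO10 effect in SK-N-BE(2)c minus that in NGP was -0.70.

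**Figure D3:**
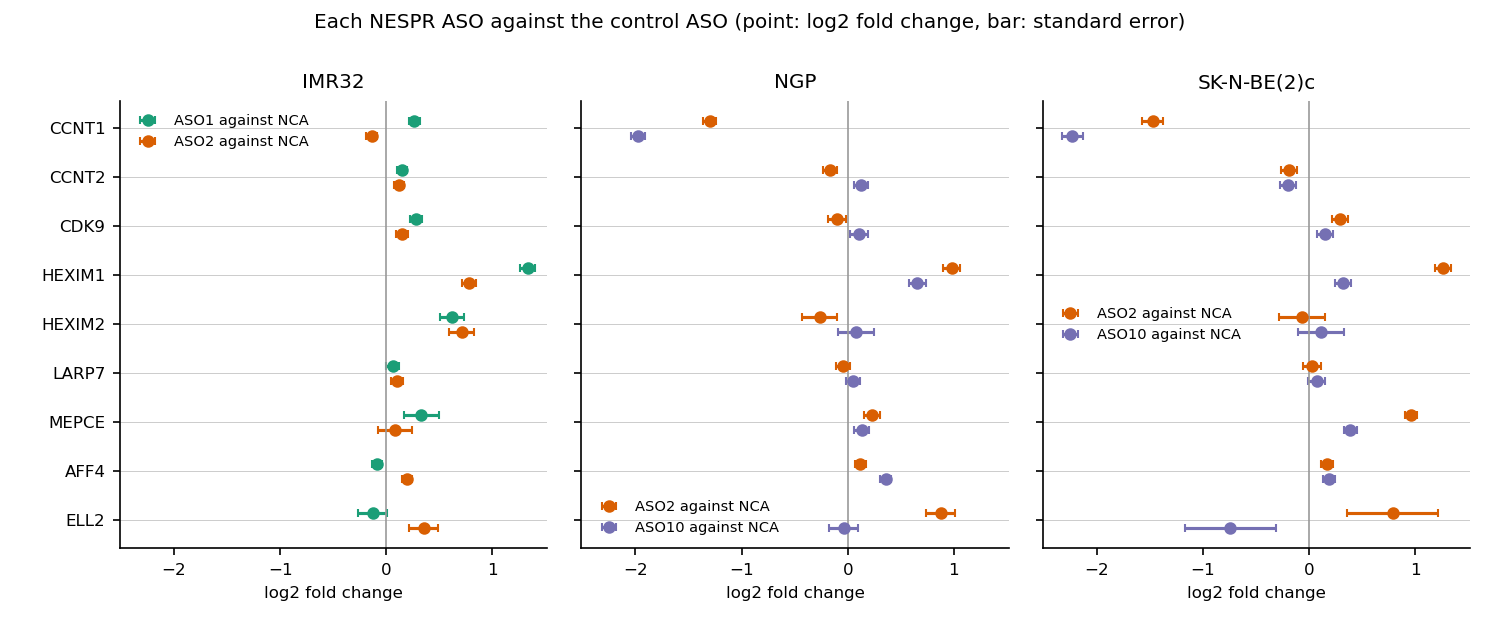
Log2 fold change of each gene (points, with standard error bars) for each NESPR ASO against NCA, 1 panel a line. CCNT1 lies between -1.30 and -2.23 in NGP and SK-N-BE(2)c and at 0.26 (ASO1) and -0.14 (ASO2) in IMR32. HEXIM1 lies right of 0 in every panel.

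Against NCA, the calls over the set were as follows. With ASO1 in IMR32, 5 of 9 were called (5 higher, 0 lower) against 28.0% of all tested genes (13.6% higher, 14.4% lower), and 6 of 9 had groups that did not overlap, against 27.6%. With ASO2 in IMR32, 4 of 9 were called (4 higher, 0 lower) against 32.4% of all tested genes (17.6% higher, 14.8% lower), and 6 of 9 had groups that did not overlap, against 30.4%. With ASO2 in NGP, 5 of 9 were called (3 higher, 2 lower) against 58.7% of all tested genes (30.6% higher, 28.1% lower), and 6 of 9 had groups that did not overlap, against 62.4%. With ASO10 in NGP, 3 of 9 were called (2 higher, 1 lower) against 54.4% of all tested genes (26.8% higher, 27.6% lower), and 3 of 9 had groups that did not overlap, against 59.1%. With ASO2 in SK-N-BE(2)c, 6 of 9 were called (4 higher, 2 lower) against 67.0% of all tested genes (33.6% higher, 33.4% lower), and 6 of 9 had groups that did not overlap, against 69.3%. With ASO10 in SK-N-BE(2)c, 5 of 9 were called (3 higher, 2 lower) against 58.9% of all tested genes (27.8% higher, 31.1% lower), and 5 of 9 had groups that did not overlap, against 64.7%. Because the genes were picked with these contrasts in view, nothing is read from the counts. HEXIM1 was called higher in 6 of the 6 contrasts, AFF4 in 4, CDK9 and MEPCE in 3 each, HEXIM2 in 2, CCNT2 in 1 (and lower in 3), ELL2 in 1 and LARP7 in 0. CCNT1 was called lower in 4 and higher in 1. The 2 contrasts of a line share their NCA libraries.

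For ASO1 against ASO2 in IMR32, 4 of 9 were called (2 higher, 2 lower) against 21.9% of all tested genes (9.17% higher, 12.8% lower), and 5 of 9 had groups that did not overlap, against 21.0%. For ASO2 against ASO10 in NGP, 6 of 9 were called (3 higher, 3 lower) against 58.6% of all tested genes (30.6% higher, 28.0% lower), and 8 of 9 had groups that did not overlap, against 65.0%. For that contrast in SK-N-BE(2)c, 4 of 9 were called (4 higher, 0 lower) against 65.4% of all tested genes (34.6% higher, 30.8% lower), and 5 of 9 had groups that did not overlap, against 68.2%. In the latter lines the shares called do not stand above the background by as much as 1 gene. CCNT1, HEXIM1 and ELL2 were called in both of those lines with one sign, each higher with ASO2. The ASO libraries compared were in view when the genes were picked, so these counts are a description too.

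**Figure D4:**
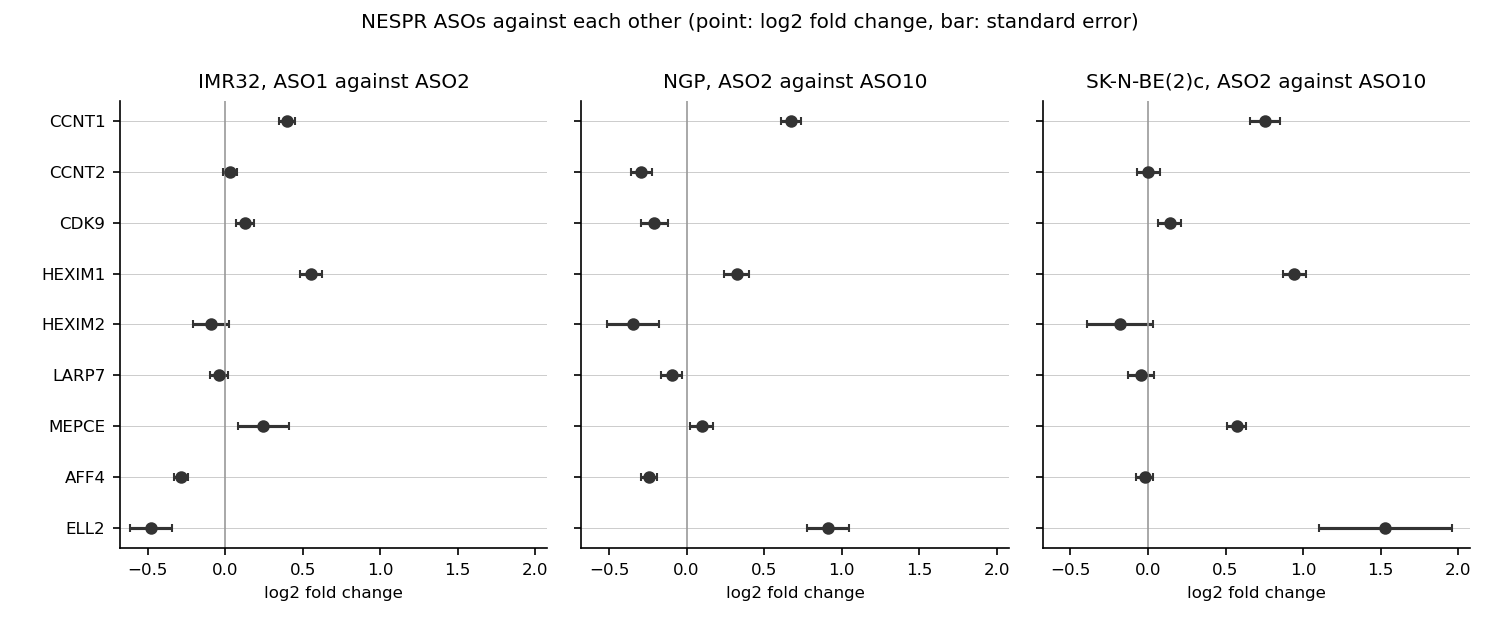
Log2 fold change of each gene (points, with standard error bars) between the NESPR ASOs used in a line, 1 panel a line. CCNT1 and HEXIM1 lie right of 0 in each panel, from 0.40 to 0.76 for CCNT1 and from 0.32 to 0.94 for HEXIM1.

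For the ASO2 effect in NGP minus IMR32, 4 of 9 were called (0 higher, 4 lower) against 39.6% of all tested genes (16.0% higher, 23.6% lower). For SK-N-BE(2)c minus IMR32, 5 of 9 were called (2 higher, 3 lower) against 50.8% of all tested genes (21.7% higher, 29.1% lower). For SK-N-BE(2)c minus NGP, 2 of 9 were called (2 higher, 0 lower) against 21.6% of all tested genes (10.4% higher, 11.2% lower). For the ASO10 effect in SK-N-BE(2)c minus NGP, 2 of 9 were called (0 higher, 2 lower) against 20.9% of all tested genes (9.92% higher, 11.0% lower). Each difference is built from contrasts against NCA, which were known when the genes were picked, so nothing is read from these counts.

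**Figure D5:**
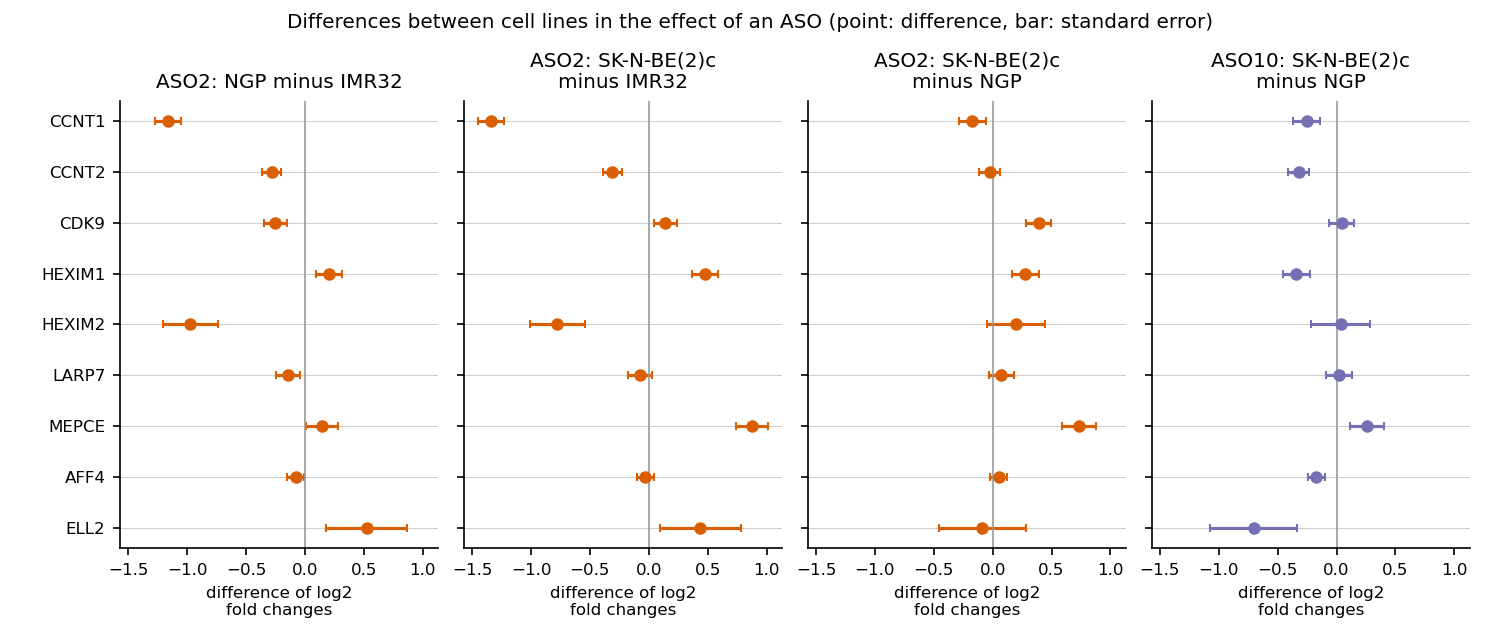
Difference between 2 lines in the log2 fold change of an ASO against NCA (points, with standard error bars), 1 panel a pair of lines and ASO. CCNT1 lies at -1.17 and -1.34 in the panels against IMR32 and at -0.17 and -0.25 between NGP and SK-N-BE(2)c, and MEPCE lies at 0.88 and 0.73 in the ASO2 panels with SK-N-BE(2)c.

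With NCA alone, levels could be set side by side for NGP and SK-N-BE(2)c, whose tables were scaled together. CCNT1 was at 2050.3 ± 78.2 (SD, n = 3) in the former and 1808 ± 65.3 in the latter, and HEXIM1 at 784 ± 96.3 and 472 ± 33.8. CCNT2 (1435 ± 137 and 673 ± 44.5), HEXIM2 (118 ± 20.8 and 48.3 ± 7.60), ELL2 (115 ± 17.2 and 14.3 ± 9.86) and AFF4 (3033 ± 109 and 2272 ± 110.5) were higher in NGP in every library too. CDK9 was higher in SK-N-BE(2)c in every library (684 ± 72.6 against 400.0 ± 36.3). MEPCE (932 ± 109 and 986 ± 47.1) overlapped between the lines. LARP7 counts were 934 ± 62.9 and 756 ± 81.7, with the lowest NGP library at 876 and the highest of SK-N-BE(2)c at 850.1. These levels are a description, and no test was made between lines. How many of all tested genes lie apart between these lines was not counted, so nothing is read from the separations.

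The wider elongation machinery was read from 5 lists of 68 other genes, chosen by function; 64 genes were tested in SK-N-BE(2)c and 65 in each of the other lines, and each was tested with limma over all genes. With ASO2 in SK-N-BE(2)c, 41 of 64 rose and 11 fell (median log2 fold change 0.32, -0.02 over all tested genes), where 33.6% of all tested genes were called higher and 33.4% lower. In NGP 36 of 65 rose and 10 fell (median 0.18, 0.01 over all) against 30.6% and 28.1%, and in IMR32 30 of 65 rose and 3 fell (median 0.16) against 17.6% and 14.8%. With ASO10 the counts were more even: 23 rose and 19 fell in SK-N-BE(2)c (median 0.06) against 27.8% and 31.1%, and 19 and 17 in NGP (median 0.00) against 26.8% and 27.6%. ASO1 in IMR32 had 22 up and 8 down (median 0.06) against 13.6% and 14.4%, and the number down was 4 without ASO1 replicate 2 and 11 without ASO1 replicate 1. With equal library totals, which moved the median of all genes in SK-N-BE(2)c with ASO2 by -0.14, the ASO2 counts were 35 up and 17 down there and 28 up and 15 down in NGP. The list genes named below were picked for large changes and for calls in at least 4 of the 6 contrasts against NCA. Their values and p-values in those contrasts, and how often they were called, therefore restate that choice and are a description. Their p-values between ASOs are not independent of it.

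Among the 13 kinases and cyclins related to P-TEFb, 9 rose and 3 fell with ASO2 in SK-N-BE(2)c, where 67.0% of all tested genes were called in either direction, and 8 rose and 2 fell in NGP, where 58.7% were. With ASO10 6 rose and 3 fell, and 7 rose and 1 fell, in that order of lines (58.9% and 54.4% of all tested genes called). CCNK, the cyclin K partner of CDK12 and CDK13, was at 983 ± 8.96 (SD, n = 3) with NCA in NGP, 279 ± 21.8 with ASO2 and 926 ± 21.0 with ASO10. It fell with ASO2 in NGP (-1.82, limma adjusted p = 1.57e-15) and in SK-N-BE(2)c (-1.94, 6.61e-18), but not detectably with ASO10 (-0.09, 0.335, and -0.07, 0.405). In IMR32 the CCNK value was only -0.30 with ASO2 (limma adjusted p = 0.00028) and 0.15 with ASO1 (0.0425). The ASO1 call there was lost with DESeq2, with no filter and without any 1 of several libraries. The ASOs differed by -1.73 (limma adjusted p = 8.14e-16) in NGP, and by -1.86 (3.79e-18) in SK-N-BE(2)c. CCNT1, by contrast, was lower with ASO10 than with ASO2 in both lines. CDK12 rose in all 6 contrasts, most in SK-N-BE(2)c with ASO2 (0.98, limma adjusted p = 8.59e-15). CDK11A rose with both ASOs in NGP (0.69 and 0.95) and SK-N-BE(2)c (0.76 and 1.05), but it has a near-identical copy, CDK11B, so its counts are uncertain.

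In the list of super elongation complex and recruiter genes, 9 rose and 1 fell of 11 tested with ASO2 in SK-N-BE(2)c, and 8 rose and 1 fell of 12 in NGP, beside the same shares of all genes for ASO2 (67.0% and 58.7%). JMJD6, which takes part in pause release, rose in all 6 contrasts (log2 fold changes from 0.62 with ASO1 in IMR32 to 1.04 with ASO10 in NGP). BRD2, a BET bromodomain gene, also rose in all 6, from 0.34 with ASO2 in IMR32 to 1.02 with ASO10 in SK-N-BE(2)c. ELL, a relative of ELL2, was at 241 ± 20.7 (SD, n = 3) with NCA, 473 ± 34.9 with ASO2 and 147 ± 17.3 with ASO10 in NGP. It rose with ASO2 (0.97 in NGP, 1.22 in SK-N-BE(2)c) and fell with ASO10 (-0.72, limma adjusted p = 4.24e-06, and -0.29, 0.0439). The ASOs differed by 1.68 and 1.52 (limma adjusted p = 1.46e-12 and 1.57e-11), in the direction seen for ELL2. The ASO10 call in SK-N-BE(2)c was lost with edgeR, DESeq2, TMM scaling or no filter, and without ASO10 replicate 2 or 3, NCA replicate 1 or 3 or ASO2 replicate 2 (-0.31 to -0.18). The ASO1 call in IMR32 (0.34) was lost without ASO1 replicate 3 or 4 or NCA replicate 1 or 2 (0.27 to 0.30).

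Of the pausing and elongation factors, 10 rose and 4 fell of 19 with ASO2 in SK-N-BE(2)c (67.0% of all genes called), and 8 rose and 4 fell in NGP (58.7%); with equal library totals these were 9 and 7, and 4 and 6, so the larger side in NGP depended on the scaling. SUPT5H, the large subunit of DSIF, rose in all 6 contrasts (0.18 with ASO2 in NGP to 0.66 with ASO10 in SK-N-BE(2)c), and so did NELFCD, a NELF subunit (0.17 with ASO1 in IMR32 to 0.65 with ASO2 in SK-N-BE(2)c). With equal library totals the SUPT5H value of ASO2 in NGP was 0.11 and not called. SETD2, a histone methyltransferase that travels with elongating polymerase, fell with ASO2 (-0.61 in NGP, -1.13 in SK-N-BE(2)c) and rose with ASO10 (0.34 and 0.42, limma adjusted p = 1.32e-05 and 2.77e-06). The IMR32 values were -0.04 and -0.01 for ASO1 and ASO2, neither called. Its counts in SK-N-BE(2)c were 1253 ± 54.5 (SD, n = 3) with NCA, 574 ± 30.5 with ASO2 and 1673 ± 38.2 with ASO10.

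In the list of 7SK RNA and related RNA-binding proteins, 7 of 9 tested genes rose and 1 fell with ASO2 in NGP (30.6% of all tested genes higher, 28.1% lower). The same numbers held in SK-N-BE(2)c (33.6% and 33.4%). The 9 tested genes code for proteins, because the RN7SK entry of the list was absent in NGP and SK-N-BE(2)c and at 0 in IMR32. Not every protein of the list need bind 7SK RNA. With ASO10 1 rose and 5 fell in NGP (26.8% and 27.6% of all), and 1 rose and 6 fell in SK-N-BE(2)c (27.8% and 31.1%). Without NCA replicate 3 the NGP numbers with ASO10 were 2 and 4. Between the ASOs 7 of 9 were higher with ASO2 in NGP and 8 of 9 in SK-N-BE(2)c, and 0 were lower in either line, where 30.6% and 34.6% of all tested genes were higher with ASO2 and 28.0% and 30.8% lower. HNRNPR was at 6987 ± 242 (SD, n = 3) with NCA, 9604 ± 307 with ASO2 and 4713 ± 241 with ASO10 in NGP, a difference between ASOs of 1.03 (limma adjusted p = 4.47e-15) that was 1.01 in SK-N-BE(2)c. DDX21, a helicase that can release P-TEFb from 7SK RNA, rose with ASO2 (0.54 in NGP, 0.45 in SK-N-BE(2)c) and fell with ASO10 (-0.41 and -0.46). SYNCRIP fell with both ASOs in both lines (in SK-N-BE(2)c -0.59 and -0.69, in NGP -0.50 and -0.47).

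Among the RNA polymerase II subunits, POLR2A, the largest subunit and the one that P-TEFb phosphorylates, rose in all 6 contrasts, from 0.16 with ASO2 to 0.40 with ASO1, both in IMR32. POLR2B rose with ASO2 in NGP and SK-N-BE(2)c (0.17 and 0.33) and fell with ASO10 (-0.19 and -0.23). POLR2C rose in IMR32 (0.33 and 0.49) and SK-N-BE(2)c (0.36 and 0.18), and gave -0.03 and -0.03 in NGP, neither called. Of the 12 subunits, 6 rose and 2 fell with ASO2 in SK-N-BE(2)c, 5 and 2 in NGP, and 4 and 0 in IMR32, shares near those of all tested genes called (67.0%, 58.7% and 32.4%). With equal library totals 3 rose and 5 fell in NGP, and 3 rose and 2 fell there without ASO2 replicate 1 or NCA replicate 1. The POLR2B rise in NGP was not called with equal library totals (0.10) or without ASO2 replicate 1 (0.14) or NCA replicate 1 (0.13), nor that of POLR2A with ASO10 in NGP without ASO10 replicate 1 (0.16) or 2 (0.14).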

How the data were processed

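RNA sequencing was done on 30 libraries in 9 groups of 3 neuroblastoma lines, with groups taken from the sample titles. Per the labels' protocols, libraries came either from a stranded total RNA kit or from a stranded mRNA kit, and which library had which is not stated; RNA that lacks a poly(A) tail is seen by the former. The values deposited by the authors are gene counts divided by 1 size factor per library, a normalized signal in 1 table per line. Per the submitters' processing notes FastQC 0.11.8, cutadapt 1.18, STAR 2.6.0, HTSeq 0.6.1, DESeq2 1.42.0 and the builds hg19 and GRCh37 were used; the annotation and strand setting are not given in the sources used here. Steps between low values gave back whole reads for 100% of values (tolerance 0.01), from 9393587 to 15060356 reads per library. The read number limits the precision of the low genes HEXIM2, ELL2 and, in IMR32, MEPCE. The IMR32 table has 174 entries without an Ensembl ID (0.172% of values), left out. No column of values went unused (0 columns).

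For each line, limma 3.58.1 (R 4.3.3, group means, trended variances) was run on log2(value + 1) over genes with a mean of at least 10 (17309 in IMR32, 14440 in NGP, 13556 in SK-N-BE(2)c). Differences between lines came from 1 fit of all 30 libraries over 11594 genes. Calls are genes whose p, adjusted by Benjamini-Hochberg over all genes tested, was under 0.05. On the recovered reads, edgeR 4.0.16 (quasi-likelihood) called 4812 genes for ASO1 against NCA in IMR32 and DESeq2 1.42.0 called 4276, beside 4850 by limma; for ASO2 in NGP they called 8526 and 7991 beside 8477. The fits were tested on simulated data with known changes in a small share of genes. The true size factors were supplied to them, so that test could not check the scaling. Alternatives were other pseudocounts, filters, scalings and tools, a replicate block, a fit of 2 groups and leaving out each library. Sequences are from RefSeq (GRCh38.p14) and gene overlaps from GENCODE release 29; no gene coordinates are given in the build of the files. A gene on the opposite strand overlaps 7 of the 15 list genes named and 5 of the 5 genes most like CCNT1.

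The 9 genes, the gene lists and the markers were chosen with earlier results of these data known. List genes were named by a rule: up to 3 per list with the largest mean absolute log2 fold change over the 6 contrasts against NCA, among those called in at least 4. The overlap check and the list counts by setting were added after the data were seen.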

Additional observations from a re-analysis of the deposited data

Results flagged for a closer look

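Among the 27 groups of 4 libraries tested (9 genes in 3 IMR32 groups), 2 had a library far from the others, where chance gives about 1 in 20 groups. CCNT2 in IMR32 ASO1 replicate 2 was at a normalized count of 1323, below the other 3 libraries (1375 to 1386). AFF4 in IMR32 ASO2 replicate 1 was at 3533, above the other 3 (3363 to 3381). Groups of 3 were not tested.

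The difference between lines in the effect of an ASO passed an adjusted p under 0.05 in the joint limma fit in 13 of 36 comparisons of a gene. Over the 4 kinds of difference, in the order given here, 39.6%, 50.8%, 21.6% and 20.9% of all tested genes did, so the count is near the background. For ASO2, NGP minus IMR32, these were CCNT2 (-0.28), CCNT1 (-1.17), CDK9 (-0.25) and HEXIM2 (-0.97). For ASO2, SK-N-BE(2)c minus IMR32, they were CCNT2 (-0.31), CCNT1 (-1.34), MEPCE (0.88), HEXIM2 (-0.78) and HEXIM1 (0.48). For ASO2, SK-N-BE(2)c minus NGP, they were CDK9 (0.39) and MEPCE (0.73), and for ASO10, SK-N-BE(2)c minus NGP, CCNT2 (-0.32) and HEXIM1 (-0.34). The CDK9 call for NGP minus IMR32 was lost without any 1 of 8 of the 30 libraries (-0.25 to -0.20). The HEXIM1 call for ASO10 was lost without any 1 of 6 libraries (-0.35 to -0.26). With no filter on low values both were lost. Some settings added calls for differences of AFF4, CCNT1, ELL2, HEXIM1 and MEPCE. All the differences called rest on contrasts against NCA that were known when the genes were picked, and the values are a description.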

How the results depend on the processing

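Over 117 values of single genes and 2907 settings, 2759 kept direction and call, and 148 did not; 48 of these turned in sign, in each case where neither value was called. CCNT1 with ASO2 in IMR32 became called with equal library totals (-0.17), with TMM scaling (-0.14), with a replicate block (-0.14) and with only the 2 groups (-0.14), and ran from -0.16 to -0.11 with 1 library left out; it was called without ASO1 replicate 1 or NCA replicate 1. CCNT1, ASO10 SK-N-BE(2)c minus NGP, ran from -0.37 to -0.076. Genes of the 9 called for ASO2 in IMR32 went from 4 to 8 with the replicate block, and ran from 3 to 7 with 1 library left out (7 without ASO1 replicate 1). For ASO10, SK-N-BE(2)c minus NGP, 1 was called without the filter, and 1 to 3 with 1 library left out. The block changed no other count by over 1.5 times. The genes it added for ASO2 in IMR32 were CCNT1, CCNT2, LARP7 and ELL2, and over all genes it moved the calls in IMR32 from 4850 to 6609 (ASO1), 5607 to 7419 (ASO2) and 3795 to 5677 (ASO1 against ASO2). The numbers were not taken to pair the libraries, since in 0 of 9 pairs of groups were all correlations of deviations over 0.1. Same-numbered libraries correlated best in 14 of 24 comparisons in IMR32, where unrelated numbers would give 6, a hint of pairing from the data, not the design, and in 6 of 18 in each of the other lines, where they would give 6. The sign turned with equal library totals for LARP7 (IMR32 ASO1 against ASO2, 0.014; SK-N-BE(2)c ASO2 against NCA, -0.11), CCNT2 (SK-N-BE(2)c ASO2 against ASO10, -0.11, and -0.029 with TMM) and AFF4 (ASO2, SK-N-BE(2)c minus NGP, -0.017). Equal totals moved the median of all genes by -0.14 for ASO2 in SK-N-BE(2)c, and the share of called genes that were higher from 50.2% to 38.4% there, from 52.9% to 42.3% for its ASO2 against ASO10, from 41.8% to 59.8% for ASO1 against ASO2 in IMR32, and for the ASO2 effect in SK-N-BE(2)c from 42.7% to 30.0% against IMR32 and from 48.0% to 30.2% against NGP. The sign also turned when 1 library was left out, with these ranges. For AFF4 they were -0.051 to 0.0074 (SK-N-BE(2)c ASO2/ASO10) and -0.067 to 0.0036 (ASO2 SK-N-BE(2)c minus IMR32). For CCNT2 they were -0.031 to 0.033 (SK-N-BE(2)c ASO2/ASO10) and -0.10 to 0.026 (ASO2 SK-N-BE(2)c minus NGP). For CDK9 it was -0.023 to 0.13 (ASO10 SK-N-BE(2)c minus NGP). For ELL2 they were -0.17 to 0.072 (NGP ASO10/NCA), -0.046 to 0.93 (ASO2 SK-N-BE(2)c minus IMR32) and -0.57 to 0.40 (ASO2 SK-N-BE(2)c minus NGP). For HEXIM2 they were -0.19 to 0.0083 (IMR32 ASO1/ASO2), -0.079 to 0.27 (NGP ASO10/NCA), -0.19 to 0.078 (SK-N-BE(2)c ASO2/NCA), -0.018 to 0.22 (SK-N-BE(2)c ASO10/NCA) and -0.16 to 0.19 (ASO10 SK-N-BE(2)c minus NGP). For LARP7 they were -0.081 to 0.0010 (IMR32 ASO1/ASO2), -0.092 to 0.0041 (NGP ASO2/NCA), -0.066 to 0.11 (SK-N-BE(2)c ASO2/NCA), -0.14 to 0.031 (SK-N-BE(2)c ASO2/ASO10), -0.17 to 0.014 (ASO2 SK-N-BE(2)c minus IMR32), -0.019 to 0.16 (ASO2 SK-N-BE(2)c minus NGP) and -0.029 to 0.11 (ASO10 SK-N-BE(2)c minus NGP). For MEPCE it was -0.0062 to 0.14 (IMR32 ASO2/NCA). The cause of these shifts was not tested. HEXIM2, ELL2 and, in IMR32, MEPCE are limited by their few reads.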
